A study of Caenorhabditis elegans with 2 samples.

Results

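Actin and its core regulators were followed through a chromatin immunoprecipitation sequencing (ChIP-seq) study of LSY-2, a C2H2 zinc finger protein of *Caenorhabditis elegans*. The set held 10 of the 19973 protein-coding genes of the nuclear chromosomes. They were the actin genes act-1, act-2, act-3 and act-4, the profilin genes pfn-1, pfn-2 and pfn-3, the ADF/cofilin gene unc-60, and cap-1 and cap-2, which encode the subunits of capping protein. These genes were chosen by gene family, with the peak signals of these data already known, foremost the very high signal at cap-2. The signals, ranks and distances below are therefore a description, and no test was made on them. Immunoprecipitation was against an eGFP-tagged LSY-2 in whole L4 larvae of pooled sexes, of strain OP240, whose genotype combines the unc-119(ed3) allele with the insertion wgIs240 carrying the tagged gene. The antibody field of the labels names lsy-2, and both replicates carry the same strain record. There were 2 biological replicates of this 1 group and no second condition, and the larvae's age was not recorded. Because whole animals were used, a peak does not show in which cells the tagged protein lay.

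The values are those of the authors' peak lists. Each replicate had its own list of candidate regions, 25003 in replicate 1 and 24002 in replicate 2, and the reads of both replicates gave a pooled list of 22035 candidates. The optimal list, kept by the authors on the irreproducible discovery rate (a measure of how well ranks recur between replicates), was the upper 1563 of the pooled candidates, with a signal of 60.3 at its last peak and 60.2 at the next candidate below it. A place in the optimal list thus follows the pooled signal, and an optimal peak may still rank low in a single replicate. Signal is the authors' own peak score on a scale that belongs to each list, so ranks are given with it (rank 1 is the strongest) and no ratio is taken between lists. The same control alignment served both replicates, per the text listings. The lists carry no read numbers, and the depth behind each signal is unknown.

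Actin monomers assemble into the filaments that power muscle contraction, cell division and cell shape. Profilin binds monomers and feeds them to growing ends, ADF/cofilin severs and disassembles filaments, and capping protein, a heterodimer, closes the fast-growing ends. In the worm, unc-60 mutants are known for disorganised thin filaments in body wall muscle. The act-1, act-2 and act-3 genes lie together on chromosome V, while act-4 lies on X.

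At the starts of these genes, tagged LSY-2 gave a very strong peak at cap-2 and a weak one at unc-60. The other 8 had no summit of the optimal list within 500 bp. 2 of the 10 genes, cap-2 and unc-60, had an optimal summit no farther than 500 bp from a transcript start, against 4.78% of all protein-coding genes. Within 2 kb the count was 4 of 10, with act-1 and act-4 added, against 8.65% of all genes. The act-4 summit lay 501 bp from a start, just past the 500 bp limit, and its signal of 76.3 was above the 71.8 of unc-60. Pooled candidates, most of them weak, lay within 500 bp of 8 of the 10 (29.8% of all genes) and within 2 kb of 9 (53.5% of all genes), the exception within 2 kb being pfn-3. With only 10 genes, chosen with these signals known, nothing is read from the difference between these shares.

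The sequences around the 5 optimal summits show what lay under the strongest point of each peak in the pooled list. Each is a window of 101 bp centred on the summit, from the RefSeq copy of the WBcel235 assembly (the ce11 build), 5′ to 3′ in the direction of the named gene, which for each of the 4 genes is the plus strand. Capitals mark 3 elements of 6 bases, searched on both strands and taken up because earlier results on these data had found them frequent at summits. They are GAGAGA with its reverse complement TCTCTC, then ACGCAG with its reverse complement CTGCGT, and last CGTCTC with its reverse complement GAGACG. In the act-1 window CGTCTC and TCTCTC overlap. The replicate 1 summit at unc-60 and the replicate 2 summit at act-4 lay outside the windows printed. Whether these sequences bear on the signals was not tested.
cap-2, 226 bp upstream of the start, chrII:10868920-10869020: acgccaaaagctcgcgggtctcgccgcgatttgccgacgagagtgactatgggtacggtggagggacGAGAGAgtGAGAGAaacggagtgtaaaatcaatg
cap-2, 1771 bp upstream, chrII:10867375-10867475: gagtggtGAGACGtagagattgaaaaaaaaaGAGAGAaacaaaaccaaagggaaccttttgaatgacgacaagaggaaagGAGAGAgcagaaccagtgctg
unc-60, 340 bp upstream, chrV:1474696-1474796: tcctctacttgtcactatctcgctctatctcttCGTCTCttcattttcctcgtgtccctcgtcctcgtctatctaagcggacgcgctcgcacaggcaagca
act-4, inside an intron, chrX:4962324-4962424: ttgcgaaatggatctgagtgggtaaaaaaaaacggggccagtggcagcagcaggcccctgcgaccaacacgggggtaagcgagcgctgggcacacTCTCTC
act-1, past the gene end, chrV:11082609-11082709: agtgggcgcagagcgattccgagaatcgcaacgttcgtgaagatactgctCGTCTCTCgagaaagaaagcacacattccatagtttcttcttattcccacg

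Each of these 5 windows held at least 1 of the 3 elements, while 47.0% of all 1563 optimal windows did. By element, GAGAGA lay in 29.8% of all optimal windows, ACGCAG in 18.7% and CGTCTC in 20.8%. The cap-2 window near the start held GAGAGA at 2 places, 2 bp apart, in its 3′ part. The window further upstream held GAGAGA at 2 places and GAGACG once, and none of the 5 windows held ACGCAG or CTGCGT. GC content was 55.4% in the cap-2 window near the start, 42.6% in the one further upstream, 52.5% at unc-60, 59.4% at act-4 and 48.5% at act-1. The median over all optimal windows was 47.5%, and of the 5 only the cap-2 window further upstream lay below it. Among the 9 pooled candidates within 500 bp of the 10 genes, 5 held an element, against 18.1% of all pooled candidates. These 5 include the cap-2 and unc-60 windows already counted above. Median GC content was 48.5% in the 9 and 39.6% in all pooled candidates, most of which are not near these starts. Since the elements were found at summits of these same data, nothing is read from these shares.

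**Figure D1:**
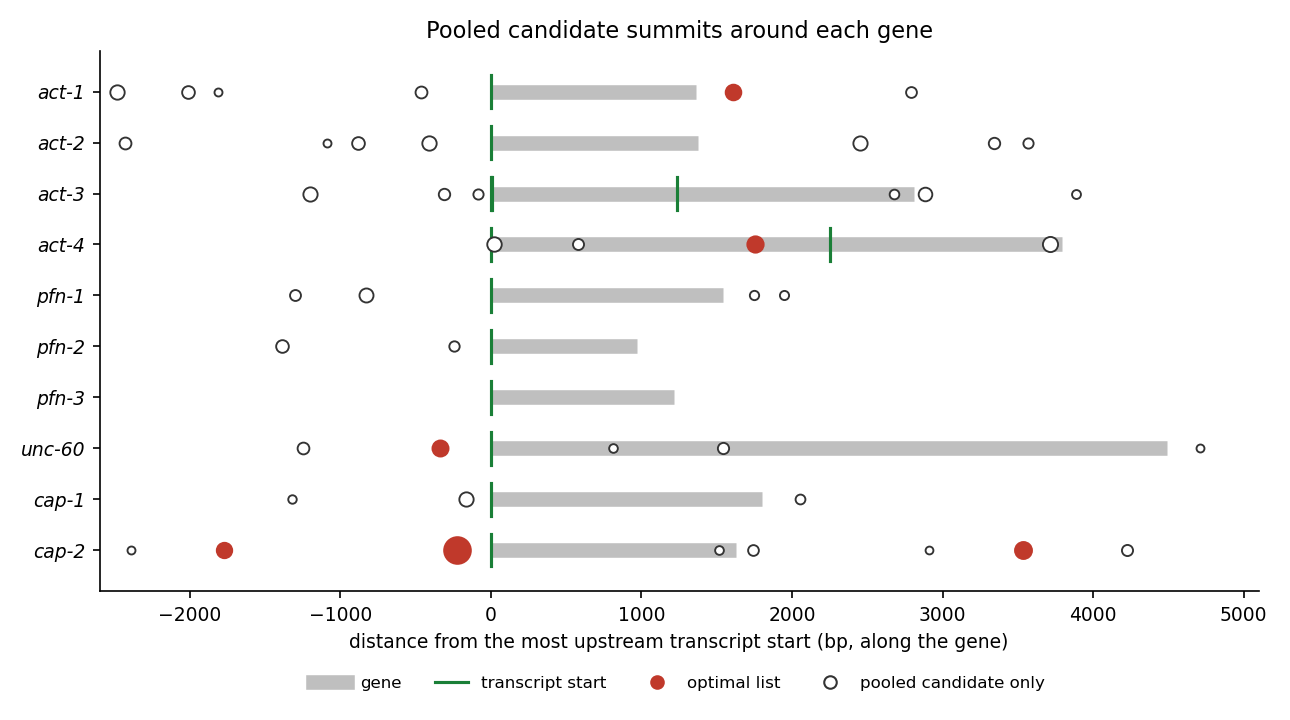
Summits of pooled candidates (circles, larger for higher signal) along each gene, by distance in bp from its most upstream transcript start. Grey bars are the genes, green ticks the annotated starts, filled red circles the peaks of the optimal list. The large circle 226 bp upstream of cap-2 stands out, the act-4 peak lies inside the gene, and the act-1 peak lies past its end. The red circle at 3537 bp on the cap-2 line is beyond the 2 kb window.

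The capping protein genes had the highest and one of the middling values. At cap-2 (WBGene00000293, chromosome II, 10869196 to 10870827, plus strand), which encodes the beta subunit, the peak had a signal of 1957 and rank 7 of 22035 pooled candidates. Its signal was 803 at rank 8 in replicate 1 and 1169.9 at rank 7 in replicate 2, with summits at most 1 bp from the pooled one. By the strongest pooled candidate within 500 bp, cap-2 was in place 9 of the 5959 genes that had one. The peak ran over 531 bp, wider than the 390 bp that 98.5% of pooled candidates share. It lay between cap-2 and the divergent gene gmps-1, which encodes GMP synthetase, and the starts of the pair are 476 bp apart. The summit was 226 bp upstream of the cap-2 start and 250 bp upstream of the gmps-1 start, so the peak is as much that gene's as cap-2's. Of the 10 genes, only cap-2 had a divergent start within 500 bp of an optimal summit. In rank order its neighbours in the optimal list were the peak at serp-1.1 just above (2700.2) and the peak at F55A11.1 and syx-5, a syntaxin gene, just below (1800.4).

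A second, much weaker peak lay further upstream of cap-2, inside an intron of gmps-1 and 1771 bp from the cap-2 start. Its pooled signal was 61.8 at rank 1501, close to the end of the optimal list. Replicate 1 ranked it 754 with a signal of 44.6, and replicate 2 ranked it 3550 with 22.8. The replicates thus placed it on opposite sides of the 1563 strongest candidates.

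cap-1 (WBGene00000292, chromosome IV, 7228422 to 7230223, minus strand), which encodes the alpha subunit of the same dimer, had no optimal peak. Its pooled candidate lay 165 bp upstream of the start with a signal of 48.4 at rank 2320. The signal was 26.2 at rank 2115 in replicate 1 and 19.0 at rank 5374 in replicate 2, with summits within 17 bp of the pooled one. The candidate was thus present near the start in both replicates but outside the 1563 strongest of either. The divergent gene D2024.4 starts 1012 bp away, beyond 500 bp from this summit. A weaker candidate, with a signal of 18.5, lay inside D2024.4. The genes for the alpha and beta partners therefore stood at ranks 2320 and 7 of the pooled list.

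unc-60 (WBGene00006794, chromosome V, 1475086 to 1479576, plus strand) had a modest optimal peak 340 bp upstream of its start. The pooled signal was 71.8 at rank 1129, below the optimal median of 89.8. Replicate 1 had a signal of 35.8 at rank 1143, 450 bp upstream, and replicate 2 a signal of 47.4 at rank 865, 328 bp upstream. Both replicates placed a candidate there among their 1563 strongest, but their summits were farther apart than the 100 bp used here to match them. The annotation gives the same start and the same first exon to a second gene, F53E2.2, so the peak cannot be assigned to either. No protein-coding start lay within 500 bp of the peaks ranked just above and below it. Inside the shared locus, pooled candidates of 27.3 and 18.9 lay 1539 and 809 bp downstream of the start.

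Among the actin genes, act-4 (WBGene00000066, chromosome X, 4960621 to 4964413, plus strand) had the highest signal. Its optimal peak had a signal of 76.3 at rank 1024 and lay 501 bp upstream of the start of the shorter annotated transcript, 1 bp beyond the 500 bp limit. On the longer transcript the summit falls in the intron between exons 1 and 2, 1753 bp from that start. Replicate 1 ranked it 474 with a signal of 59.6, and replicate 2 ranked it 5135 with a signal of 19.3. The rank differed 10.8-fold between replicates, against a median of 1.69-fold and a 90th percentile of 4.85-fold over the 494 optimal peaks past rank 1000 that were matched in both replicates.

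At the upstream start of act-4, a pooled candidate with a signal of 50.2 at rank 2159 lay 17 bp downstream, in the 5′ UTR. Its ranks were 3242 in replicate 1 and 1979 in replicate 2. Another candidate, with a signal of 57.8 at rank 1691, lay in the 3′ UTR, 78 bp before the gene end, and of all candidates at the 10 genes outside the optimal list it was nearest to that list. Its ranks were 3280 in replicate 1 and 1584 in replicate 2. The intronic summit therefore ranked higher in replicate 1, and the summits at both gene ends ranked higher in replicate 2.

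The other actin genes had weak candidates at their starts. act-2 (WBGene00000064, chromosome V, 11076777 to 11078154, minus strand) had a pooled signal of 49.0 at rank 2259, 413 bp upstream. That candidate came from replicate 1, where it ranked 751 with a signal of 44.6, and replicate 2 had no candidate within 500 bp of the start. act-1 (WBGene00000063, chromosome V, 11081052 to 11082415, plus strand), whose start is divergent from that of act-2 and 2898 bp from it, had a pooled signal of 30.5 at rank 6187, 466 bp upstream. It too had a candidate there in replicate 1 alone, at rank 2541. act-3 (WBGene00000065, chromosome V, 11071690 to 11074498, minus strand) had candidates of 28.2 and 23.4 at 313 and 89 bp upstream, and both replicates had candidates within 500 bp.

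The optimal peak of act-1 was at the other end of the gene. It lay 1607 bp downstream of the start and 244 bp past the gene end, with a signal of 65.2 at rank 1363. Replicate 1 ranked it 3498 (signal 20.8) and replicate 2 ranked it 1038 (signal 42.3), with summits within 1 bp of the pooled one. It was the nearest optimal peak to act-2 and act-3 as well, at 4.50 and 8.16 kb.

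In the pooled list the profilin genes had the lowest values, which did not hold in replicate 2 alone. pfn-2 (WBGene00003990, chromosome X, 5353103 to 5354072, minus strand) had a pooled candidate of 23.9 at rank 10933, 243 bp upstream, seen in replicate 1 at rank 9489 and absent within 500 bp in replicate 2. Its strongest pooled candidate within 2 kb lay 1391 bp upstream with a signal of 35.1 at rank 4550. That candidate ranked 3502 in replicate 1 and had no summit within 100 bp in replicate 2. pfn-3 (WBGene00003991, chromosome X, 1079430 to 1080649, minus strand) had no pooled candidate within 2 kb, and a single candidate in replicate 2 at rank 9800, 124 bp upstream. pfn-1 (WBGene00003989, chromosome I, 12922004 to 12923548, plus strand) had no candidate within 500 bp in any list. Its strongest pooled candidate lay 829 bp upstream with a signal of 45.7 at rank 2618, and ranked 4082 in replicate 1 and 3015 in replicate 2. Replicate 2 also had a candidate 981 bp upstream of pfn-1 at rank 1749. No pooled summit lay within 100 bp of its summit, which fell inside the region of the pooled candidate just described. In replicate 2 the candidate at rank 1749 stood above the strongest candidates within 2 kb of act-2 (2807), act-3 (3451) and cap-1 (5374). The nearest optimal summits were 44.9 kb from pfn-1, 75.5 kb from pfn-2 and 12.6 kb from pfn-3.

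**Figure D2:**
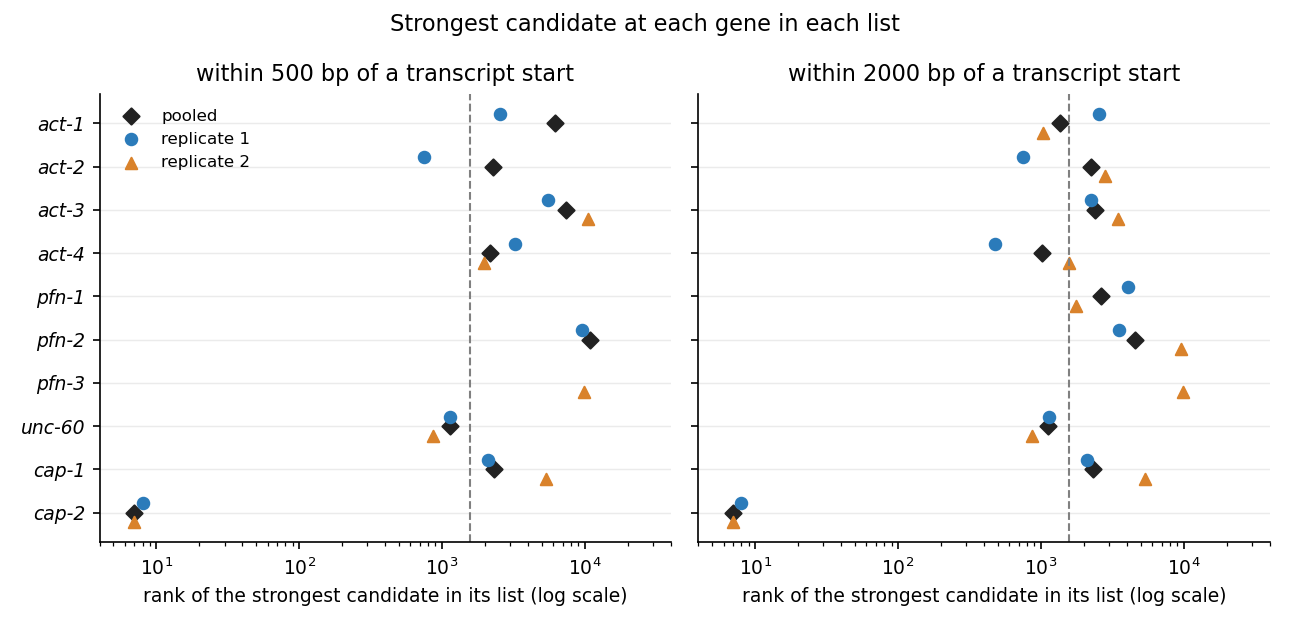
Rank (log scale, lower is stronger) of the strongest candidate at each gene in the pooled list (diamonds), replicate 1 (circles) and replicate 2 (triangles), within 500 bp of a start on the left and 2000 bp on the right. A missing symbol means no candidate, and the dashed line is rank 1563, the size of the optimal list. At cap-2 the ranks are 7 and 8, and at unc-60 the symbols also lie left of the line in each list.

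By pooled signal within 500 bp the order was cap-2, unc-60, act-4, act-2, cap-1, act-1, act-3 and pfn-2, with pfn-1 and pfn-3 last for lack of a candidate. cap-2 came first and cap-1 in the same place in both replicates, while the order of the others differed. In replicate 1 act-2 (rank 751) came before unc-60 (1143), cap-1 (2115), act-1 (2541) and act-4 (3242). In replicate 2 unc-60 (865) came before act-4 (1979), cap-1 (5374), pfn-3 (9800) and act-3 (10487). The pooled values of act-4, act-2 and cap-1, from 50.2 to 48.4, are closer than this change of order between replicates allows to be told apart.

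The genes with a candidate near a start differed between the replicates. Replicate 1 had a candidate within 500 bp of 8 genes (32.1% of all protein-coding genes) and replicate 2 of 6 (31.3%). Both had one at act-3, act-4, unc-60, cap-1 and cap-2, which is 5 of 10, against 20.9% of all genes. Of the 30 pooled candidates within 2 kb of the 10 genes, 12 had a summit within 100 bp in each replicate, 9 in replicate 1 alone, 5 in replicate 2 alone and 4 in neither. The 30 comprised 18 upstream and 12 downstream of the nearest start of the gene. Neither split was made over all pooled candidates, so nothing is read from these counts. A gene of the set had from 0 to 5 pooled candidates within 2 kb, with a median of 3.50, beside a median of 1.00 over all protein-coding genes. Genes with several starts, such as act-3 and act-4, have wider windows.

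**Figure D3:**
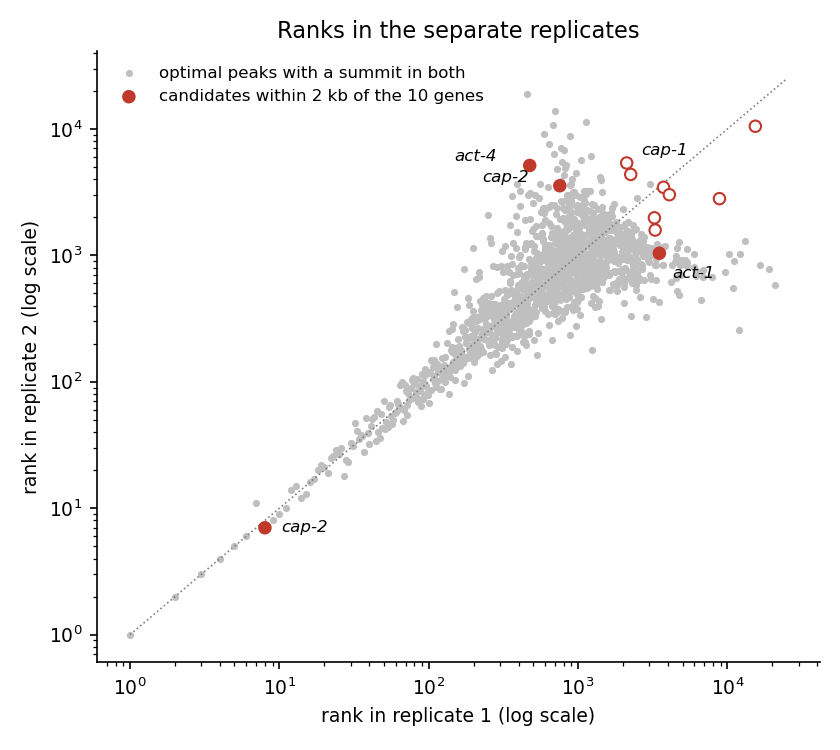
Rank in replicate 1 against rank in replicate 2 (both log scales) for optimal peaks with a summit within 100 bp in each replicate (grey), and for pooled candidates within 2 kb of the 10 genes (red, filled for optimal peaks). The dotted line marks equal ranks. The cap-2 peak lies on it at ranks 8 and 7, while the act-4 peak, at 474 and 5135, lies above it.

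Candidates also lay at the ends of these genes, a position examined after the values were seen. A pooled summit was within 300 bp of the annotated gene end at 7 of the 10 genes, against 18.8% of all protein-coding genes. These were act-1 (65.2), act-4 (57.8), act-3 (42.1), cap-2 (25.4), cap-1 (22.1), pfn-1 (20.5) and unc-60 (17.3), by the signal of the strongest. Those of cap-2, cap-1, pfn-1 and unc-60 were weak, at ranks 9468, 13091, 15240 and 21355 of the 22035 pooled candidates. The cap-2 summit had no match within 100 bp in either replicate, and the pfn-1 summit had one in replicate 1 alone. Nothing is read from the difference between these shares. At cap-2 the summit lay in a coding exon of the convergent cyclophilin gene cyn-4, and at cap-1 in an intron of D2024.5. Of these 7, act-1 alone was in the optimal list.

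The promoters, taken as 250 bp before to 50 bp after the most upstream start, held GAGAGA or TCTCTC at 5 of the 10 genes. These were act-2, pfn-3, unc-60, cap-1 and cap-2, and 21.8% of all protein-coding promoters held it. CGTCTC or GAGACG was in the promoter of unc-60 alone (11.2% of all promoters), and ACGCAG or CTGCGT in none of the 10 (8.23%). A match describes the letters of this window and no more. pfn-3 held GAGAGA without a pooled candidate within 2 kb, though replicate 2 had a candidate 124 bp upstream at rank 9800. The other genes holding it, act-2, unc-60, cap-1 and cap-2, had a pooled candidate within 500 bp. So did act-1, act-3, act-4 and pfn-2, which did not hold it.

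The other genes of the actin cytoskeleton were taken from a list of 51 compiled by role, of which 50 matched the annotation. Optimal summits lay within 500 bp of 5 of the 50, against the 4.78% of all genes given above. The strongest was wip-1, which encodes a WASP-interacting protein, with a signal of 215 at rank 190, and its replicates ranked it 194 and 197. gex-3, a subunit gene of the WAVE complex that activates branched filament assembly, had a signal of 103 at rank 627. unc-115, which encodes an abLIM-type actin-binding protein, followed with 101 at rank 645. aipl-1, whose product assists ADF/cofilin, had 84.5 at rank 868, and the twinfilin gene twf-2 had 71.4 at rank 1140. Of these 5 peaks, that of twf-2 was placed outside the 1563 strongest by replicate 1, at rank 2575.

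By role, the list had optimal summits at 2 of 6 genes for nucleation-promoting factors, 2 of 11 for monomer binding, severing and disassembly, and 1 of 12 for crosslinkers and membrane linkers. None were found at the 7 Arp2/3 complex genes, the 6 formin genes, the 7 genes for filament ends and side binding, or act-5. Pooled candidates within 500 bp were present at 24 of the 50 (48.0%), against 29.8% of all protein-coding genes, including 4 of the 7 Arp2/3 genes and 0 of the 6 formin genes. No signal in this list reached that of cap-2.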

How the data were processed

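The 2 replicates were immunoprecipitations of eGFP-tagged LSY-2 from whole L4 larvae. The authors deposited peak lists in narrowPeak layout, which derive from immunoprecipitation and control alignments per the labels' text listings. The aligner, peak caller, versions and threshold are not given in the sources used here. The signal column of each list is the authors' own value as deposited, used to rank and describe peaks within a list. The deposited −log10 q values reach 3.53 in the pooled list, where 1695 candidates share that value, so they were not used for ranking.

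The ce11 lists were joined to Ensembl release 115 (WBcel235, the same assembly, and every peak lay inside it), with sequence from RefSeq. Coordinates are 1-based, and distances run from summit to the nearest start of a protein-coding transcript, negative upstream. Summits within 100 bp were matched between lists. Python 3.11.15, pandas 2.3.3 and numpy 2.4.6 were used. The assignment of summits to windows was tested on simulated data. The ce10 lists served as an alternative, without converting coordinates.

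The genes, lists and sequence elements were chosen with earlier results of these data known. Named were all 10 genes, other genes with a start within 500 bp of their peaks, actin list genes with an optimal peak, and the neighbours in rank of the optimal peaks at starts. Genes nearby, such as cyn-4, D2024.4 and D2024.5, and the gene-end window were added after the values were seen. So were actin list genes that entered only under an alternative setting. Tests were not made, since the set was chosen on these signals.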

Additional observations from a re-analysis of the deposited data

How the results depend on the processing

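Of 36 alternative values, 28 kept their value or stayed within 1.5 times it, which includes changes from 2 to 3 genes. Some of the 28 could not change, since ce10 peaks were picked by nearest signal, and act-1, unc-60 and cap-2 have a single start. The 28 is therefore no measure of stability. The count of 2 genes with an optimal summit within 500 bp was 1 with a 250 bp window and 1 with the 781 strongest optimal peaks, cap-2 in each case. It was 3 with 1000 bp, with 1000 bp upstream to 200 bp downstream, and with any base of the peak, each time by adding act-4. With the 1563 strongest candidates of a single replicate it was 2 to 3, act-2 being added by replicate 1. The count of 4 within 2 kb was 1 with the 781 strongest peaks and 3 to 4 from a single replicate. Replicate 1 alone gave act-2 and not act-1, and replicate 2 alone gave act-1 and not act-4. The count of 5 genes with a candidate in both replicates was 3 within 250 bp, 9 within 2 kb and 2 (cap-2 and unc-60) among the 1563 strongest. It was 4, without unc-60, when the summits of the replicates had to lie within 100 bp of each other. The 5 of the actin list became 3 with the 781 strongest peaks and were 5 to 6 from a single replicate. Replicate 1 alone gave unc-94 and not twf-2, and replicate 2 alone added act-5. The count was 4 with a 250 bp window, without wip-1, and 7 with 1000 bp, spc-1 and wve-1 being added. With any base of the peak it was 6, by adding wve-1. The act-4 summit, upstream of one start, lay 1753 bp downstream when the most upstream start alone was used. Changes with the window, the list size or the start used follow from those choices, and the cause of the changes between replicates was not tested. In the ce10 list the peak nearest in signal to that of cap-2 on its chromosome had 1967 and also rank 7. Nearest-start assignment, with ties kept, was run for the counts of optimal peaks within 500 bp, within 2 kb and in the actin list, and changed none of these 3. No paired analysis was possible because there is 1 group. Depth is unknown, so whether weak candidates would recur in deeper libraries was not tested.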

Other observations

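The act-1, act-2 and act-3 cluster, with 500 bp added on either side, spans 11.7 kb and held 10 pooled candidates. That is 8.53 per 10 kb, beside 2.20 per 10 kb over the chromosomes. Of the 10 summits, 4 fell inside genes annotated as noncoding RNAs (biotype ncRNA), which cover 15.1% of the cluster. They include the optimal peak past the end of act-1, at T04C12.29 (65.2). The others were the candidates upstream of act-2, at T04C12.18 and T04C12.24 (49.0), upstream of act-3, at T04C12.15 and T04C12.21 (47.8), and upstream of act-1, at T04C12.16 and T04C12.25 (30.5). At each of the last 3 sites the pair of noncoding genes overlap on opposite strands. Over the genome, 3.41% of pooled candidates and 9.09% of optimal peaks had a summit inside a gene of this biotype. These positions were noticed after the values were seen, and whether the noncoding genes and the peaks are related was not tested.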
